A study of Mus musculus with 8 samples.

Results

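Chromosomal DNA is copied by 3 polymerases, and the 10 genes described here encode their subunits. Pola1, Pola2, Prim1 and Prim2 encode DNA polymerase alpha-primase, Pold1, Pold2 and Pold3 encode subunits of DNA polymerase delta, and Pole, Pole2 and Pole3 encode subunits of DNA polymerase epsilon. They were chosen by gene name from the 56748 genes of the FPKM table (fragments mapped to a gene, scaled by gene length and library size), and all 10 were among the 11818 genes that passed the expression filter. RNA sequencing was performed on 32D cells, a mouse myeloblast-like bone marrow line that needs interleukin-3 (IL-3), to ask what the combined loss of the glucose transporters GLUT1 and GLUT3 does in cells with normal or mutant Jak2. There were 4 groups of 2 libraries, Jak2WT GLUT1/3 WT, Jak2WT GLUT1/3 dKO, Jak2V617F GLUT1/3 WT and Jak2V617F GLUT1/3 dKO, where dKO stands for CRISPR-Cas9 double knockout of Slc2a1 (GLUT1) and Slc2a3 (GLUT3). Every cell had been transduced with murine Jak2, either wild type or carrying the activating V617F change, so the Jak2WT cells are transduced cells as well. Each library came from 1 single-cell-derived clone, numbered 1 or 3 in every group. All clones were kept for 24 h in RPMI with 5 mM glucose, 1 mM glutamine, 10% FCS and 2 ng/ml IL-3, without pyruvate.

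Alpha-primase starts every new DNA strand, because the other polymerases cannot begin without a primer. Prim1 makes a short RNA primer, Pola1 extends it with DNA, and epsilon and delta then take over on the leading and the lagging strand. These enzymes are needed in S phase, and in dividing cells many of their genes are transcribed under the E2F family of factors around the passage from G1 to S.

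The libraries held 16846011 to 48884329 reads on genes, recovered from the FPKM values, and a member was covered by at least 303 reads in every library (Pole2 had the fewest). Slc2a1 was at 44.7 and 48.4 FPKM in the Jak2WT GLUT1/3 WT clones against 9.47 and 9.17 in the dKO clones, and at 64.0 and 53.0 against 17.3 and 12.7 in Jak2V617F. The corresponding Slc2a3 values were 97.7 and 91.9 against 16.0 and 49.5, and 198 and 166 against 48.2 and 23.8. Both genes thus lay below their GLUT1/3 WT levels in every dKO clone, and the test was passed by Slc2a1 in both backgrounds (limma, adjusted p = 0.000872 and 0.000444) and by Slc2a3 in Jak2V617F (0.0115) but not in Jak2WT (0.0612). Jak2 itself, in which endogenous and transduced RNA cannot be told apart, was at 243 to 258 FPKM in the Jak2WT and at 139 to 140 in the Jak2V617F GLUT1/3 WT clones. Of the myeloid progenitor markers, 3 of 9 reached 1 FPKM and Kit was listed at 0 in all libraries, while markers of lymphocytes (6) and fibroblasts (4) stayed under 1 FPKM.

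In Jak2V617F cells, RNA of all 10 genes was higher in the dKO clones than in the GLUT1/3 WT clones, by 1.26-fold (Pold3) to 2.57-fold (Pola2) in mean FPKM. All 10 passed the test (limma, adjusted p under 0.05), where 13.7% of all tested genes were called higher and 16.2% lower. In Jak2WT cells none of the 10 passed the test for the same knockout, with 5 differences above 0 and 5 below, where 7.62% of all tested genes were called higher and 6.06% lower. The Jak2V617F GLUT1/3 WT clones had the lowest mean of the 4 groups for all 10 genes, and the Jak2V617F GLUT1/3 dKO clones had the highest for each gene except Pold3. In bulk libraries, fewer cells in S phase and less of these RNAs per cell cannot be told apart.

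The promoters of 5 genes are shown because the members moved together and because E2F factors are known regulators of replication genes. They are Pola1 and Pole2, which hold an E2F word, Pola2 and Pold1, which had the largest differences in log2(FPKM + 1) for the knockout in Jak2V617F and hold none, and Pold4, a delta subunit outside the 10 that moved the other way. Each run covers 250 bases before to 50 bases after the start of the gene's canonical transcript in GENCODE vM39 (GRCm39), written in the direction of transcription, with capitals for any match to TTTCCCGC, TTTCGCGC, TTTGCCGC or TTTGGCGC on either strand.
Pola1, chrX:92675764-92676063, reverse strand: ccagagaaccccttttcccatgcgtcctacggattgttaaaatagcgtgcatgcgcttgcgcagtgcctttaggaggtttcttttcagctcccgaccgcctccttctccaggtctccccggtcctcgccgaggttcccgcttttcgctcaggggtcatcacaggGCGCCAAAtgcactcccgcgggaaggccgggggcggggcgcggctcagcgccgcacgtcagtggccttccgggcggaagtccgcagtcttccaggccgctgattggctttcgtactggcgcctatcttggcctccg
Pola2, chr19:6014212-6014511, reverse strand: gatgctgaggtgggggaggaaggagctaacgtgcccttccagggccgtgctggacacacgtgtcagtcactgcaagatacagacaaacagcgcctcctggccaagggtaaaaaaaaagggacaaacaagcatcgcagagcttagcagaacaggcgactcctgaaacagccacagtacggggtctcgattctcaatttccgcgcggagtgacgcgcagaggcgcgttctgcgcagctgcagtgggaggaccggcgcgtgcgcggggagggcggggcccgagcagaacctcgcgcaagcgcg
Pold1, chr7:44198300-44198599, reverse strand: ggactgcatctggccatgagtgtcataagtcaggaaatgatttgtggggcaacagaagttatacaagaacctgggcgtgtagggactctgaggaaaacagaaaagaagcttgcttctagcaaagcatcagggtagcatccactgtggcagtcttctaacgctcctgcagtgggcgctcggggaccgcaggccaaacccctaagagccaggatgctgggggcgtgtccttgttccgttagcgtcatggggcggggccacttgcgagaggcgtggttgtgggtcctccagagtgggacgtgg
Pold4, chr19:4281703-4282002, forward strand: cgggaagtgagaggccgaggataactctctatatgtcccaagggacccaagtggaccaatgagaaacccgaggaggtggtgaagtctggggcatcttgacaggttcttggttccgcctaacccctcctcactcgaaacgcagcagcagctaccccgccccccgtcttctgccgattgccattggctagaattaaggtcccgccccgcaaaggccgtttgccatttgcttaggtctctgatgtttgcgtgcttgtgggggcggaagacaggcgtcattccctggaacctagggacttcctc
Pole2, chr12:69274920-69275219, reverse strand: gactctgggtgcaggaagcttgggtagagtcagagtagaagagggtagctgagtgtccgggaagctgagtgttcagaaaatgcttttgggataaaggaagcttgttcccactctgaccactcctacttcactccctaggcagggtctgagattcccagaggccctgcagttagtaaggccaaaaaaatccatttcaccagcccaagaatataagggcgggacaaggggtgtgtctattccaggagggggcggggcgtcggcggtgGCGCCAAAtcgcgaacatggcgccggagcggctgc
Both matches read GCGCCAAA on the strand shown, which is TTTGGCGC on the other strand. The match began at base -86 from the start in Pola1 and at base 16 of the transcript in Pole2. Pole4, an epsilon subunit outside the 10, also holds such a word, GCGGGAAA at bases 22 to 29. Its RNA rose after the knockout in Jak2V617F, as theirs did, but was highest in the Jak2WT dKO clones. An E2F word was present in 2 of the 9 member promoters searched, in 9 of 37 promoters (24.3%) of the other replisome genes listed below, and in 614 of 21770 promoters (2.82%) of protein-coding genes. CCAAT was found on either strand in 4 of the 9 and in 39.9% of all promoters, and the GC box GGGCGG in 8 of the 9 (all but Prim1) and in 42.5%. These are matches of letters in 300 bases, and a promoter without a match may carry other forms of the site or sites elsewhere.

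Pola2, the regulatory B subunit of polymerase alpha (chr19:5990570-6014230, reverse strand, mm39), had 7.15 and 5.86 FPKM in the Jak2V617F GLUT1/3 WT clones and 16.6 and 16.9 FPKM in the dKO clones. In Jak2WT it had 11.8 and 12.0 FPKM in GLUT1/3 WT and 13.2 and 15.3 FPKM in dKO clones. All 4 groups were separate, and both Jak2V617F groups lay outside the Jak2WT range, one below and one above. The difference between Jak2V617F dKO and GLUT1/3 WT was 1.25 ± 0.11 (SE) in log2(FPKM + 1), the largest among the members (limma, adjusted p = 0.00055), against 0.24 ± 0.11 in Jak2WT (adjusted p = 0.17). Differences on this scale are somewhat smaller than the ratio of FPKM for genes at these levels.

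Pola1, the catalytic subunit of polymerase alpha (chrX:92348373-92675761, reverse strand), had 10.6 and 10.2 FPKM in Jak2V617F GLUT1/3 WT clones and 15.3 and 17.7 FPKM in Jak2V617F dKO clones. The Jak2WT libraries, at 15.5 and 16.0 FPKM without and 14.0 and 15.7 FPKM with the knockout, overlapped each other and the Jak2V617F dKO clones. Only the Jak2V617F GLUT1/3 WT clones stood apart from the rest. The knockout difference in Jak2V617F was 0.61 ± 0.10 (adjusted p = 0.00417, limma), and in Jak2WT it was -0.08 ± 0.10 (adjusted p = 0.619).

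Prim1, the catalytic subunit of primase (chr10:127851037-127865906, forward strand), rose from 13.6 and 13.2 FPKM to 24.0 and 29.8 FPKM in Jak2V617F, a difference of 0.94 ± 0.12 (adjusted p = 0.00186). Its level in the Jak2WT clones was 14.7 and 15.4 FPKM without and 16.7 and 19.5 FPKM with the knockout. Prim1 was the one member whose Jak2V617F dKO clones also passed the test against the Jak2WT dKO clones (0.54 ± 0.12, adjusted p = 0.0227), and it had the smallest difference between the backgrounds among the GLUT1/3 WT clones, at -0.15 ± 0.12 (adjusted p = 0.364). The first of these calls was lost without Jak2WT dKO clone 1 (0.43, adjusted p = 0.139) and without Jak2V617F dKO clone 3 (0.39, adjusted p = 0.064).

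Prim2, the large primase subunit, which links Prim1 to polymerase alpha (chr1:33492891-33708876, reverse strand), moved less than Prim1. It had 6.39 and 5.58 FPKM in Jak2V617F GLUT1/3 WT and 7.73 and 9.35 FPKM in dKO clones, without overlap, and the difference of 0.45 ± 0.11 passed the test (adjusted p = 0.0242). Without Jak2V617F GLUT1/3 WT clone 3 it was 0.36 (adjusted p = 0.106), and without Jak2V617F dKO clone 3 it was 0.32 (adjusted p = 0.092). In Jak2WT the order was the other way, with 7.88 and 8.51 FPKM in GLUT1/3 WT and 6.51 and 7.29 FPKM in dKO clones (-0.22 ± 0.11, adjusted p = 0.231).

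**Figure D1:**
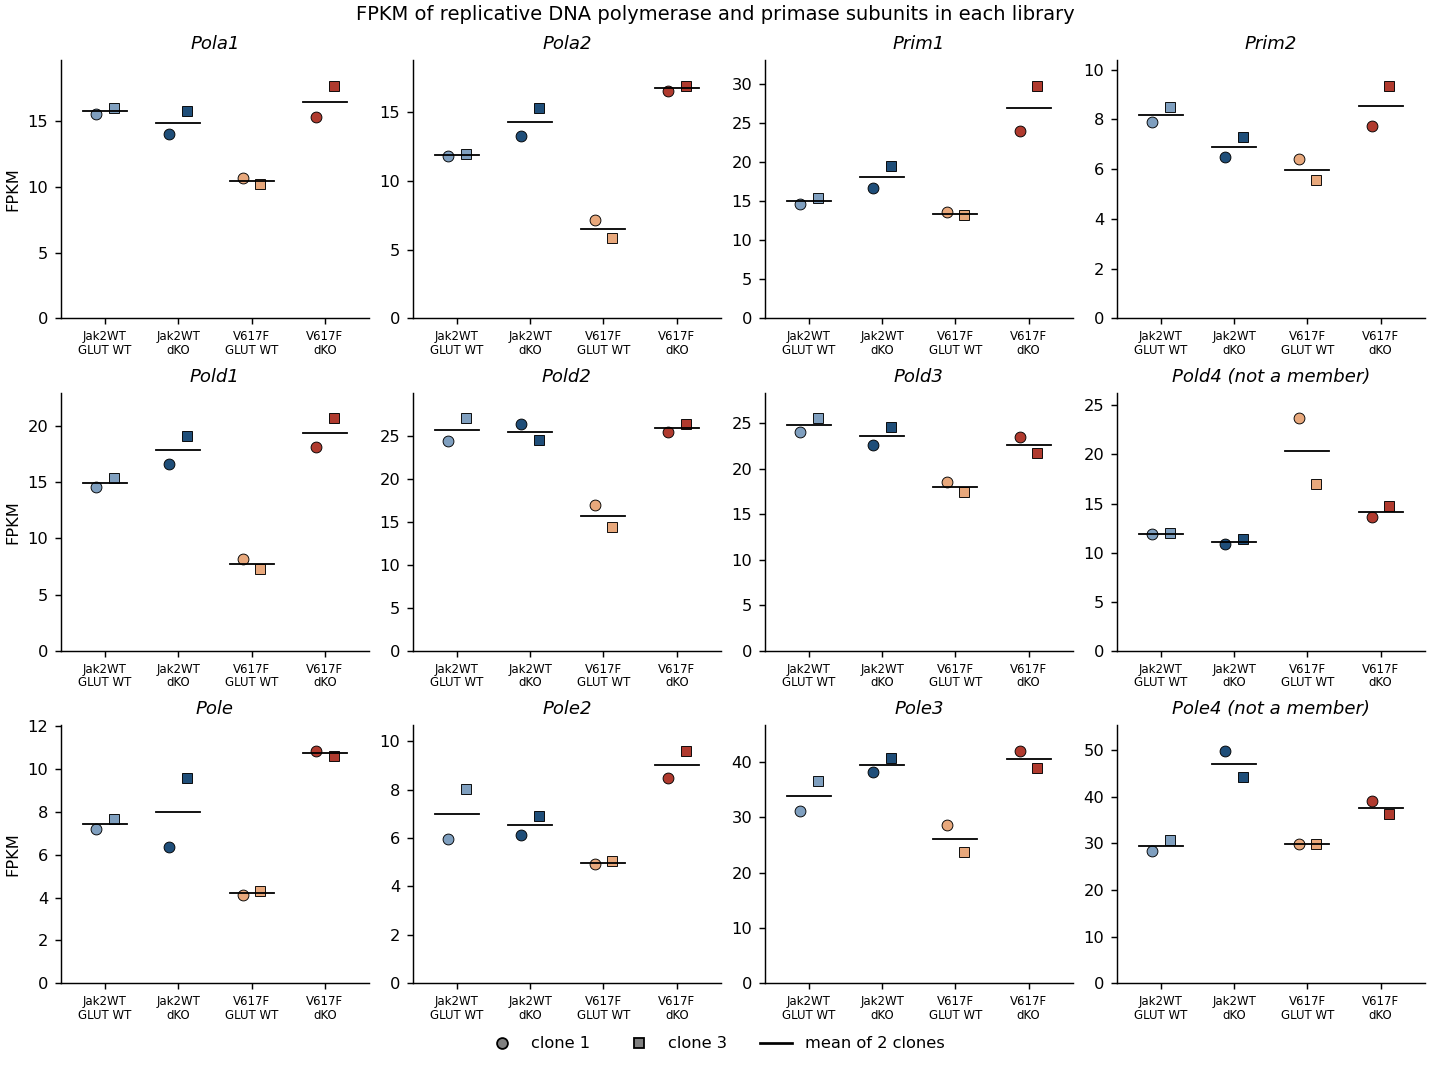
FPKM of the 10 members and of Pold4 and Pole4 in each of the 8 libraries (circles clone 1, squares clone 3, bars the mean of 2 clones). The Jak2V617F GLUT1/3 WT clones are the lowest group in each of the 10 member panels and the highest for Pold4.

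Pold1, the catalytic subunit of polymerase delta (chr7:44182170-44198273, reverse strand), was at 8.15 and 7.23 FPKM in Jak2V617F GLUT1/3 WT and at 18.1 and 20.6 FPKM in Jak2V617F dKO clones. The Jak2WT clones lay at 14.6 and 15.3 FPKM and, with the knockout, at 16.6 and 19.1 FPKM. The knockout difference was 1.23 ± 0.11 in Jak2V617F (adjusted p = 0.00055, limma) and 0.24 ± 0.11 in Jak2WT (adjusted p = 0.176). A processed pseudogene, Gm44833, lies within Pold1 on the other strand and was at 0.101 to 1.84 FPKM, and the counting was not stated to use strand.

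Pold2, which links the catalytic subunit to the rest of the enzyme (chr11:5822180-5828292, reverse strand), had 17.0 and 14.4 FPKM in Jak2V617F GLUT1/3 WT clones. The other 6 libraries lay between 24.3 and 27.0 FPKM, and the 3 groups they form overlapped. Its knockout difference was 0.69 ± 0.10 in Jak2V617F (adjusted p = 0.00316) and -0.01 ± 0.10 in Jak2WT (adjusted p = 0.957).

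Pold3, an accessory subunit through which delta contacts the sliding clamp (chr7:99731318-99770772, reverse strand), had the smallest difference in Jak2V617F, from 18.6 and 17.4 FPKM to 23.5 and 21.7 FPKM (0.31 ± 0.09, adjusted p = 0.0301). It was also the one member with its highest group mean in Jak2WT GLUT1/3 WT, at 24.0 and 25.5 FPKM in the clones, which overlapped the 22.5 and 24.5 FPKM in Jak2WT dKO clones. The call was lost in 5 of the 8 fits that each left out a library: Jak2WT GLUT1/3 WT clone 1 (adjusted p = 0.056) or clone 3 (0.056), Jak2V617F GLUT1/3 WT clone 1 (0.061) or clone 3 (0.111), and Jak2V617F dKO clone 1 (0.107). It was lost as well when the fit held only the compared groups (adjusted p = 0.1001). The call of Prim2 was also lost with only the compared groups (adjusted p = 0.0895) and without a filter (adjusted p = 0.0699).

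Pold4, the smallest subunit of delta and not one of the 10 (chr19:4281953-4283688, forward strand), went the other way. Its FPKM was 23.7 and 17.0 in Jak2V617F GLUT1/3 WT clones against 13.6 and 14.7 in Jak2V617F dKO clones, and between 10.9 and 12.0 in the 4 Jak2WT libraries. It was higher in Jak2V617F than in Jak2WT among the GLUT1/3 WT clones (0.70 ± 0.14, adjusted p = 0.00987, limma) and lower after the knockout in Jak2V617F (-0.48 ± 0.14, adjusted p = 0.0399). The ratio of Pold1 to Pold4 FPKM was therefore 0.344 and 0.425 in Jak2V617F GLUT1/3 WT clones and between 1.23 and 1.67 in the other 6 libraries.

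Pole, the catalytic subunit of polymerase epsilon (chr5:110434172-110485340, forward strand), was at 4.12 and 4.32 FPKM in Jak2V617F GLUT1/3 WT clones and at 10.8 and 10.6 FPKM in Jak2V617F dKO clones. Its Jak2WT dKO clones were the most unlike pair, at 6.38 and 9.56 FPKM, on either side of the GLUT1/3 WT clones at 7.20 and 7.66 FPKM. The knockout difference was 1.17 ± 0.15 in Jak2V617F (adjusted p = 0.00218) and 0.07 ± 0.15 in Jak2WT (adjusted p = 0.81). An antisense RNA, Gm15792, lies within Pole, was at 0.85 to 6.43 FPKM and rose by 1.40 in the same Jak2V617F comparison (adjusted p = 0.0337). Without a stated strand setting, reads of the pair cannot be told apart where they overlap.

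Pole2, the B subunit of epsilon (chr12:69248547-69274969, reverse strand), had 4.91 and 5.05 FPKM in Jak2V617F GLUT1/3 WT and 8.47 and 9.61 FPKM in Jak2V617F dKO clones (0.74 ± 0.13, adjusted p = 0.00704). In Jak2WT its values overlapped, at 5.94 and 8.02 FPKM without and 6.14 and 6.92 FPKM with the knockout (-0.07 ± 0.13, adjusted p = 0.75).

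Pole3, a histone-fold subunit of epsilon that also serves in chromatin remodelling (chr4:62440886-62443305, reverse strand), was the most abundant member per length. It had 28.5 and 23.8 FPKM in Jak2V617F GLUT1/3 WT clones and 42.0 and 38.9 FPKM in Jak2V617F dKO clones, which did not overlap (0.62 ± 0.12, adjusted p = 0.00886). The Jak2WT values were 31.1 and 36.6 FPKM without and 38.1 and 40.8 FPKM with the knockout (0.22 ± 0.12, adjusted p = 0.25). Its partners in remodelling, Chrac1, Baz1a and Smarca5, ranged from -0.16 to 0.09 in the Jak2V617F comparison, and 0 of 3 passed the test, where 13.7% of all tested genes were called higher and 16.2% lower. Pole4, the histone-fold partner of Pole3 in epsilon and not one of the 10, had its highest values in the Jak2WT dKO clones, at 49.8 and 44.1 FPKM, against 28.4 and 30.6 FPKM in Jak2WT GLUT1/3 WT (0.65 ± 0.09, adjusted p = 0.0078). In Jak2V617F it rose from 29.9 FPKM in both clones to 39.0 and 36.2 FPKM (0.32 ± 0.09, adjusted p = 0.0339).

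Over the 10 members, the knockout in Jak2V617F cells gave 10 calls higher and 0 lower, against 13.7% of all tested genes called higher and 16.2% called lower. Both dKO clones lay above both GLUT1/3 WT clones for 10 of 10 members and for 29.9% of tested genes. The median log2 difference was 0.72 for the members and -0.02 over all tested genes. The knockout in Jak2WT cells gave 0 calls in either direction with limma, against 7.62% of tested genes higher and 6.06% lower. It gave 0 at an unadjusted p under 0.05, for which no share over all genes is given. With voom on the recovered reads it gave 0 as well, against 1018 of 11818 genes higher and 1587 lower. The members' median for this knockout with limma was 0.03. Their 95% intervals reached from -0.49 (Prim2) to 0.53 (Prim1), so a p above the threshold does not show that these genes were unchanged. A permutation of 2 against 2 clones cannot give a two-sided p under 0.333, and the calls depend on limma's pooling of spread over genes and over the 4 groups. The p-values measure the spread between clones of 1 cell line. In the paper, clones of a condition are called independent, yet every dKO clone of a background is listed with the same GLUT1 deletion size. Whether these clones came from separate GLUT1 edits was not tested. If they did not, the p-values leave out the spread between such edits.

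**Figure D2:**
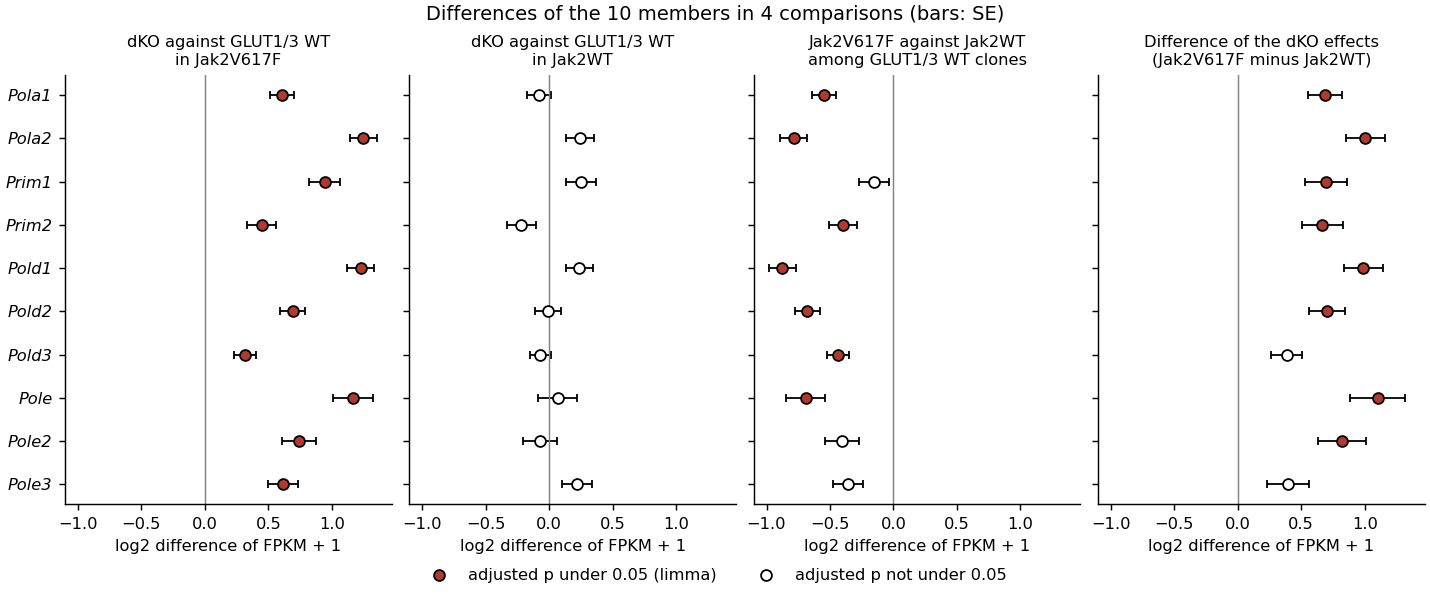
Difference in log2(FPKM + 1) of the 10 members in 4 comparisons, with bars for the SE and filled points for a limma adjusted p under 0.05. All 10 points are filled and positive for the knockout in Jak2V617F, none is filled for the knockout in Jak2WT, and 7 are filled and negative between the backgrounds of the GLUT1/3 WT clones.

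Whether the knockout effect differed between the backgrounds was tested as an interaction in the same fit. The Jak2V617F effect exceeded the Jak2WT effect for all 10 members, by 0.38 (Pold3) to 1.10 (Pole), and 8 passed the test, against 4.72% of tested genes called higher and 5.91% called lower. The exceptions were Pold3 (adjusted p = 0.0838) and Pole3 (adjusted p = 0.161). The number of calls depended on single libraries. It was 0 without Jak2WT GLUT1/3 WT clone 1, without clone 3 of that group or without Jak2WT dKO clone 1, and 2 without Jak2V617F GLUT1/3 WT clone 3. It was 3 without Jak2V617F GLUT1/3 WT clone 1, and 4 without Jak2WT dKO clone 3 or Jak2V617F dKO clone 3. Calls over all 11818 tested genes, 558 higher and 698 lower with every library, were also fewer in the first 3 of these fits, at 27 and 41, 2 and 3, and 27 and 36 in the order given. They were 329 and 419 without Jak2V617F GLUT1/3 WT clone 3, 202 and 158 without clone 1 of that group, 254 and 280 without Jak2WT dKO clone 3, and 502 and 754 without Jak2V617F dKO clone 3. The median difference over the members stayed between 0.63 and 0.82 in these fits, against 0.70 with all libraries.

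Between the backgrounds, the GLUT1/3 WT clones of Jak2V617F had less RNA of these enzymes than those of Jak2WT. Lower calls were made for 7 of the 10 members and higher calls for 0, against 14.9% of tested genes lower and 15.3% higher. Both Jak2V617F clones lay below both Jak2WT clones for 10 of 10 members and for 33.6% of tested genes. Pold1 had the largest difference, at 0.515 times the Jak2WT mean FPKM (-0.88 ± 0.11, adjusted p = 0.00178, limma), followed by Pola2 at 0.547 times (-0.79 ± 0.11, adjusted p = 0.00257). The others called were Pola1 (-0.55), Prim2 (-0.40), Pold2 (-0.68), Pold3 (-0.44) and Pole (-0.69). Pole2 (-0.40 ± 0.13, adjusted p = 0.0584) and Pole3 (-0.36 ± 0.12, adjusted p = 0.0548) missed the threshold, and Prim1 lay further from it. Without Jak2WT GLUT1/3 WT clone 1 Pole2 was at -0.59 and called, and without clone 3 of that group at -0.21. Pole3 was at -0.49 and called without Jak2V617F GLUT1/3 WT clone 1, and at -0.23 without clone 3 of that group. The count was 4 without Jak2WT GLUT1/3 WT clone 3, which ended the calls of Prim2, Pold3 and Pole, and in that fit the calls over all tested genes went from 1765 lower and 1812 higher to 746 and 837. This comparison and the Jak2V617F knockout share the Jak2V617F GLUT1/3 WT clones, so low values there enter both with opposite sign.

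With the knockout in both backgrounds, 1 of the 10 members (Prim1) was higher in Jak2V617F and 0 were lower, against 7.12% and 9.96% of tested genes. The members' median was 0.18, with intervals for the single genes between -0.25 and 0.82. Compared with the Jak2WT GLUT1/3 WT clones, the Jak2V617F dKO clones had 3 members higher and 0 lower, against 14.9% and 16.6% of tested genes. These were Prim1 (0.79 ± 0.12, adjusted p = 0.00325), Pola2 (0.46 ± 0.11, adjusted p = 0.0163) and Pold1 (0.35 ± 0.11, adjusted p = 0.0425). The count fell to 1 without Jak2WT GLUT1/3 WT clone 1 or without Jak2V617F dKO clone 3, and the median fell from 0.30 to 0.15 without the former. Over all tested genes the calls went from 1762 higher and 1960 lower to 867 and 1012 without the former and to 1509 and 1844 without the latter. For Pola1, Prim2, Pold2 and Pold3 the log2 difference from Jak2WT GLUT1/3 WT lay between -0.12 (Pold3) and 0.06 (Pola1), without a call.

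The share of higher and lower calls over all genes depended on scaling, since the summed FPKM differed between libraries. With every library set to the same summed FPKM, the calls in Jak2V617F were 2192 higher and 1452 lower in place of 1614 and 1919. For the knockout in Jak2WT they were 706 and 1378 in place of 901 and 716, between the GLUT1/3 WT clones 1223 and 2930 in place of 1812 and 1765, and for the interaction 1177 and 393 in place of 558 and 698. The median of all genes moved to -0.12 between the GLUT1/3 WT clones and to 0.12 for the interaction, while the members' medians there became -0.64 and 0.88. The 10 higher calls in Jak2V617F and the 0 calls in Jak2WT were the same under this scaling.

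Some subunits of one enzyme did not keep a fixed proportion of RNA. The ratio of Pola1 to Pola2 FPKM was 1.49 and 1.75 in Jak2V617F GLUT1/3 WT clones and 0.921 and 1.04 in Jak2V617F dKO clones, with Jak2WT at 1.32 and 1.33 without and 1.06 and 1.03 with the knockout. The dKO clones of both backgrounds thus lay below the GLUT1/3 WT clones of either. For Prim1 to Prim2 the dKO clones lay above, at 2.56 and 2.68 in Jak2WT and 3.10 and 3.18 in Jak2V617F, against 1.86 and 1.81 and against 2.13 and 2.37 in the GLUT1/3 WT clones. The ratio of Pold1 to Pold3 was 0.439 and 0.415 in Jak2V617F GLUT1/3 WT clones and 0.768 and 0.949 in dKO clones, against 0.608 and 0.600 without and 0.735 and 0.777 with the knockout in Jak2WT. The ratio of Pole3 to Pole went from 6.92 and 5.50 to 3.87 and 3.67 in Jak2V617F, while in Jak2WT it was 4.31 and 4.78 without and 5.98 and 4.26 with the knockout, which overlap. Other pairs moved less. Group means ran from 0.871 (Jak2V617F GLUT1/3 WT) to 1.15 (Jak2V617F dKO) for Pold2 to Pold3. For Pole to Pole2 they ran from 0.847 (Jak2V617F GLUT1/3 WT) to 1.21 (Jak2WT dKO). The ratios were chosen after values of these genes had been seen and are given without a test.

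**Figure D3:**
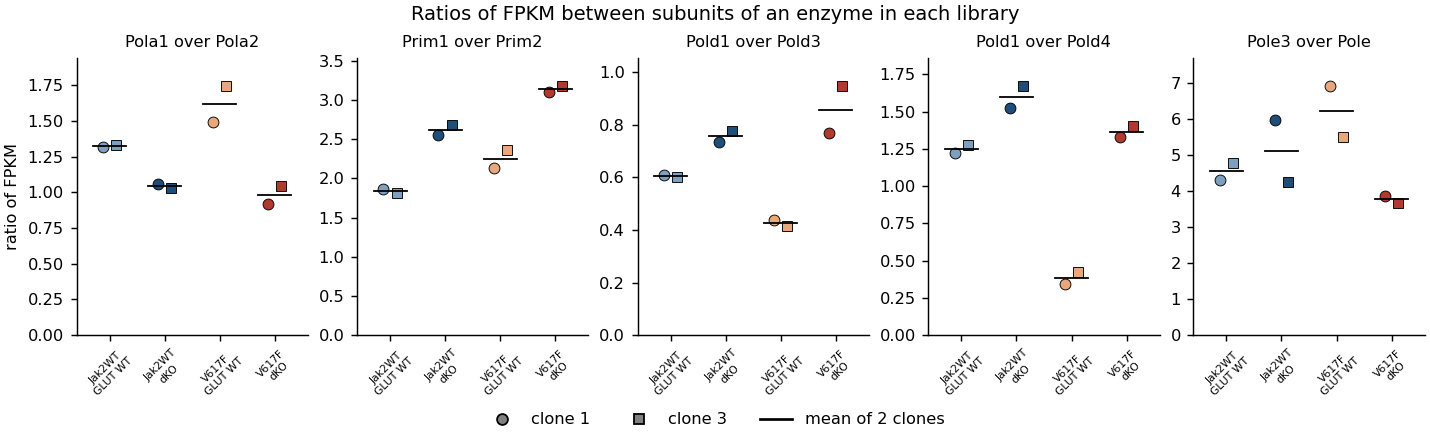
Ratio of FPKM between 5 pairs of subunits in each library (circles clone 1, squares clone 3, bars the mean of 2 clones). In the dKO clones of both backgrounds Pola1 over Pola2 is lower and Prim1 over Prim2 is higher than in any GLUT1/3 WT clone, and Pold1 over Pold4 is lowest in the Jak2V617F GLUT1/3 WT clones.

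Per length, the mean over the 8 libraries ranged from 6.88 FPKM (Pole2) to 35.0 FPKM (Pole3). In delta and epsilon the catalytic subunit was not the most abundant. Pold1 (14.9 FPKM) was below Pold2 (23.2 FPKM) and Pold3 (22.2 FPKM), and Pole (7.59 FPKM) was far below Pole3 and close to Pole2. In alpha-primase, Prim1 had the highest mean (18.4 FPKM) and Prim2 the lowest (7.40 FPKM), with Pola1 (14.4 FPKM) and Pola2 (12.4 FPKM) between them. These are means over all groups, and the order differed by group. For example, Pola1 lay above Prim1 in Jak2WT GLUT1/3 WT and Pola2 above Pola1 in Jak2V617F dKO. The lowest mean was that of Pole in Jak2V617F GLUT1/3 WT (4.22 FPKM) and that of Prim2 in Jak2V617F dKO (8.54 FPKM). The summed FPKM of the 10 was 119 and 107 in Jak2V617F GLUT1/3 WT clones, 192 and 202 in Jak2V617F dKO clones and 157 to 183 in the Jak2WT clones.

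Most other replisome genes were higher as well in the Jak2V617F dKO clones. Of the 11 genes of the CMG helicase, which unwinds the DNA ahead of them, 11 were higher and 0 lower after the knockout in Jak2V617F, with a median of 1.11, from 0.31 (Gins4) to 1.70 (Mcm4), where 13.7% of all tested genes were called higher and 16.2% lower. Of the 14 tested genes for the sliding clamp, its loader and the joining of Okazaki fragments, 12 were higher and 0 lower (median 0.78), among them Pcna (1.32 ± 0.13, adjusted p = 0.000713), the clamp itself, and the flap nuclease Fen1 (1.49 ± 0.18, adjusted p = 0.0015). Rfc1 (0.27, adjusted p = 0.0853) and Rnaseh2c (-0.09, adjusted p = 0.643) did not pass. Of the 11 genes for replisome tethers and single-strand binding, 11 were higher (median 1.15), from Rpa3 (0.23) to Clspn (1.59). In Jak2WT cells the same lists of 36 tested genes had 3 calls higher and 1 lower, with a median of 0.07, close to the 7.62% and 6.06% of all tested genes. Between the GLUT1/3 WT clones, 34 of the 36 were lower in Jak2V617F and 0 higher, with a median of -0.67, against 14.9% and 15.3% of all tested genes.

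Among DNA polymerases that act outside the replication fork, in repair, in the bypass of damage or in mitochondria, 13 were tested. After the knockout in Jak2V617F 2 of them were higher and 2 lower, with a median of 0.06, and these counts are close to the 13.7% and 16.2% of all tested genes. Polq, which joins broken ends, was at 2.04 and 2.47 FPKM in Jak2V617F GLUT1/3 WT and at 5.14 and 6.20 FPKM in dKO clones (1.03 ± 0.14, adjusted p = 0.00238). Polh, which copies past ultraviolet damage, had 10.0 and 8.34 FPKM without and 14.0 and 13.1 FPKM with the knockout (0.52 ± 0.10, adjusted p = 0.00811). Primpol, a primase that restarts synthesis past obstacles, moved against Prim1, from 6.27 and 6.58 FPKM to 3.68 and 3.08 FPKM (-0.76 ± 0.10, adjusted p = 0.00188). Primpol also fell in Jak2WT dKO clones, from 4.38 and 4.24 FPKM to 3.21 and 2.96 FPKM (-0.38 ± 0.10, adjusted p = 0.0432).

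**Figure D4:**
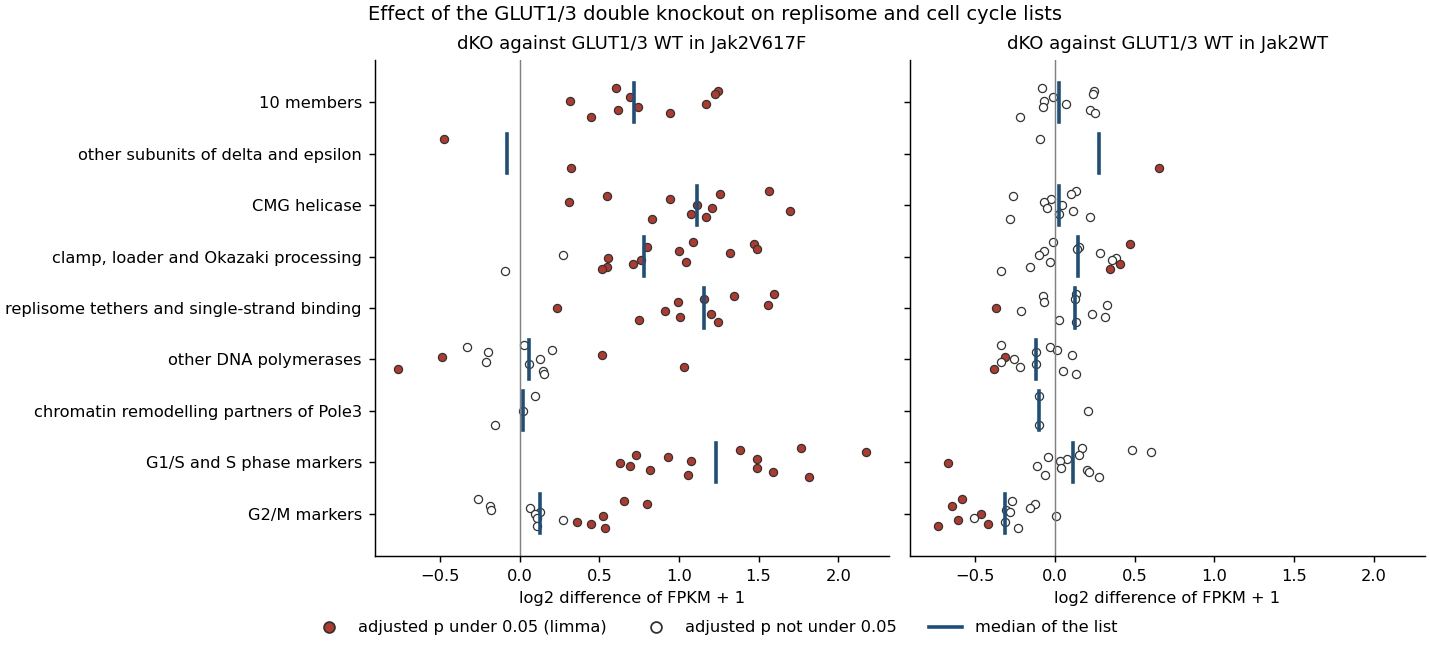
Difference in log2(FPKM + 1) between dKO and GLUT1/3 WT clones for the genes of each list, in Jak2V617F (left) and Jak2WT (right), with filled points for a limma adjusted p under 0.05 and a bar for the median of the list. In Jak2V617F the replisome lists and the S phase markers have medians right of 0 (0.72 to 1.23), while the other DNA polymerases and the G2/M markers spread to both sides of it (medians of 0.06 and 0.13).

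Among E2F factors, E2f1 (1.07), E2f2 (1.55), E2f7 (1.32) and E2f8 (1.20) were higher in the Jak2V617F dKO clones and E2f5 was lower (-0.62). E2f2 was at 26.1 and 14.2 FPKM in those clones against 6.67 and 5.26 FPKM in Jak2V617F GLUT1/3 WT. Binding of these factors to the members was not tested. In all, 7 of 13 tested E2F factors, partners and pocket proteins were higher and 1 was lower, where 13.7% and 16.2% of all tested genes were called. Genes of the passage into S phase were higher for 14 of 14, with a median of 1.23 and Cdc6, which loads the helicase, at 2.17 ± 0.18 (adjusted p = 0.000519). Of the 15 G2/M genes 6 were higher and 0 lower, with a median of 0.13, in the same comparison. In Jak2WT the S phase list had 0 higher and 1 lower (Mki67, -0.67), and the G2/M list 0 higher and 6 lower (median -0.32), against 7.62% of all tested genes higher and 6.06% lower. Between the GLUT1/3 WT clones, 11 of 14 S phase genes (median -1.06) and 9 of 15 G2/M genes (median -0.50) were lower in Jak2V617F and 0 higher, against 14.9% and 15.3% of all tested genes. The part of a changed share of cells in S phase in the members' differences was not tested.

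Other markers moved with the groups too. The summed FPKM of 10 erythroid markers was 94.0 to 112 in Jak2WT GLUT1/3 WT, 248 to 292 in Jak2WT dKO, 554 to 913 in Jak2V617F GLUT1/3 WT and 2608 to 4789 in Jak2V617F dKO clones, with 8 of the 10 reaching 1 FPKM and Alas2 near 0 throughout. For the 9 myeloid progenitor markers the sums were 179 to 205, 128 to 162, 146 to 149 and 67.3 to 69.3 in the same order. The 3 tested ones went in both directions against Jak2WT GLUT1/3 WT. Their differences in log2(FPKM + 1) ran from -0.44 to 0.35 in Jak2V617F GLUT1/3 WT and from -1.73 to 0.29 in Jak2V617F dKO clones. The 5 megakaryocyte markers, of which 4 reached 1 FPKM and Vwf was near 0, summed to 65.0 to 65.7, 88.6 to 94.2, 183 to 193 and 189.8 to 230.5. The summed FPKM of macrophage markers, of which 2 of 4 reached 1 FPKM, was lowest in the Jak2V617F dKO clones. It was 21.9 to 26.4 there against 52.2 to 72.9 in the other groups. For the knockout in Jak2V617F the 2 tested ones went apart, at -1.54 and 0.29 in log2(FPKM + 1). Of 6 mast cell and basophil markers, 2 reached 1 FPKM. Gata2, which other blood cells also express, lay between 116 and 163 FPKM, while Cpa3 was at 50.8 to 100.5 FPKM in the Jak2WT and at 0 to 1.67 FPKM in the Jak2V617F libraries. The part of these markers in the members' differences was not tested.

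The members followed one another across the libraries. The correlation of each with the mean standardised level of the other 9, over 8 libraries of log2(FPKM + 1), ran from 0.764 (Prim1) and 0.796 (Pold3) to 0.973 (Pola2 and Pold1). Among the other tested genes, Mcm5, a subunit of the helicase, had the profile most like their mean, with a Pearson r of 0.998. It was at 42.4 and 35.9 FPKM in Jak2V617F GLUT1/3 WT, 81.1 and 85.7 FPKM in Jak2V617F dKO, 63.3 and 69.6 FPKM in Jak2WT GLUT1/3 WT and 61.4 and 74.2 FPKM in Jak2WT dKO clones. The next 9, with r from 0.994 to 0.986, were Ada, Stmn1, Wdhd1, Chaf1a, Dnmt1, Cdc45, Brca1, Mcm4 and Rad54l. Of these 10 genes, Mcm5, Wdhd1, Chaf1a, Cdc45 and Mcm4 were also in the replication and S phase lists. The 8 points fall into 4 groups of 2 clones and each shares its library with the genes compared, so these values only describe the libraries.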

How the data were processed

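RNA sequencing of 8 libraries was analysed, 1 for each of 2 clones in 4 groups, with groups taken from the labels. The deposited unit is FPKM. Per the labels, the authors cleaned reads with fastp 1.0.1, aligned them to mm39 with HISAT2 2.2.1 and counted genes with featureCounts 2.0.6. The annotation version, strand setting and total used are not given in the sources used here. All 8 library columns were used and 0 were left out. FPKM times gene length gave whole reads for 100% of values above 0 (tolerance 0.01 of a read), which gave the depth of 16846011 to 48884329 reads. Within a group, the clones' reads differed beyond sampling (chi-square of 6.64 to 27.1 per gene), so precision was set by clone-to-clone spread.

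Genes with at least 1 FPKM in at least 2 libraries (11818 of 56748) were fitted with limma 3.58.1 (R 4.3.3) on log2(FPKM + 1), using 4 group means, empirical Bayes with a trend, 4 residual and 3.34 prior degrees of freedom, and Benjamini-Hochberg adjustment over all genes tested (threshold 0.05). The 6 comparisons covered the knockout effect in either background, the background effect in either GLUT state, the groups differing in both (Jak2V617F dKO and Jak2WT GLUT1/3 WT), and the interaction. The genes named are the 10 members, Slc2a1, Slc2a3, Jak2, genes of the fixed lists, and the 10 other genes most correlated with the mean member profile. Members and lists were chosen with earlier results of these data known. Overlapping genes (Gm44833, Gm15792) are named by position. The ratios between subunits were chosen later. Promoters came from GRCm39 with GENCODE vM39; that of 1 member is not reported here. As alternatives, the filter was dropped or set on mean FPKM, the pseudocount was lowered to 0.1, the trend was removed or made robust, libraries were set to equal summed FPKM or to their median ratio, voom was run on recovered reads, the fit was limited to the compared groups or given a replicate block, and each library was left out. Same-numbered clones did not deviate together (r from -0.24 to 0.15), so the numbers do not pair the clones. Figures were drawn with matplotlib 3.10.9.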

Additional observations from a re-analysis of the deposited data

Results flagged for a closer look

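The knockout effect differed between the Jak2V617F and the Jak2WT background for 8 of the 10 members by the interaction test in limma. Over all tested genes this test called 4.72% higher and 5.91% lower. Of the 36 tested genes in the other replisome lists it called 28 higher and 0 lower. The members' median difference stayed between 0.63 and 0.82 when single libraries were left out. The differences in log2(FPKM + 1), Jak2V617F minus Jak2WT, were 0.69 for Pola1 (adjusted p = 0.0266), 1.00 for Pola2 (adjusted p = 0.0152), 0.69 for Prim1 (adjusted p = 0.044) and 0.67 for Prim2 (adjusted p = 0.0428). They were 0.99 for Pold1 (adjusted p = 0.0154), 0.70 for Pold2 (adjusted p = 0.0284), 1.10 for Pole (adjusted p = 0.0268) and 0.82 for Pole2 (adjusted p = 0.0391). Both clones of a group enter each value, the Jak2V617F GLUT1/3 WT clones were the lowest group for each of these genes, and all 8 calls were lost without Jak2WT GLUT1/3 WT clone 1, without clone 3 of that group or without Jak2WT dKO clone 1, fits in which calls over all genes were few as well.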

How the results depend on the processing

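Of 1070 values of single members under the alternatives, 931 kept their direction and their side of the threshold, 96 kept the direction and lost the call, 25 gained a call and 18 changed sign. No member changed sign for the knockout in Jak2V617F, for the backgrounds among GLUT1/3 WT clones or for the interaction. The 10 calls for the knockout in Jak2V617F became 8 to 10, and the 0 calls in Jak2WT were 0 under every alternative.

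With equal summed FPKM the members' median was -0.064 for the knockout in Jak2WT, -0.64 between GLUT1/3 WT clones and 0.88 for the interaction, and Pole in Jak2WT became -0.021. Against Jak2WT GLUT1/3 WT, Jak2V617F dKO gave -0.00605 for Prim2 and -0.046 for Pold2. With voom the medians were 0.88 for the knockout in Jak2V617F, -0.63 between GLUT1/3 WT clones and 0.89 for the interaction. The count between dKO clones, 1 in the main fit, was 0 without a filter or with only the compared groups, and 2 with voom. Calls over all genes there were 842 higher and 1177 lower in the main fit. They were 633 and 714 of 25788 genes without a filter, 436 and 592 with only the compared groups, and 1342 and 1344 with voom. The interaction had 2 calls without a filter and 5 without the trend. Its calls over all genes were 558 higher and 698 lower in the main fit. They were 165 and 181 without a filter and 506 and 543 without the trend. A replicate block, although the clone numbers do not pair the clones, gave 2 calls between dKO clones, ended the call of Pold3 for the knockout in Jak2V617F (limma, adjusted p = 0.0501) and moved no other count by over 1.5 times. The cause was not tested for any of these.

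When each library was left out in turn, the calls ranged from 4 to 7 between GLUT1/3 WT clones, from 0 to 2 between dKO clones, from 1 to 4 for Jak2V617F dKO against Jak2WT GLUT1/3 WT and from 0 to 6 for the interaction, with medians of 0.15 to 0.38 for Jak2V617F dKO against Jak2WT GLUT1/3 WT, 0.63 to 0.82 for the interaction and -0.0445 to 0.13 for the knockout in Jak2WT. In Jak2WT, the knockout difference ranged from -0.083 to 0.061 for Pold2, from -0.19 to 0.33 for Pole and from -0.26 to 0.12 for Pole2. Between dKO clones it ranged from -0.026 to 0.074 for Pold2, from -0.11 to 0.0048 for Pold3 and from -0.019 to 0.089 for Pole3. For Jak2V617F dKO against Jak2WT GLUT1/3 WT it ranged from -0.041 to 0.16 for Pola1, from -0.075 to 0.17 for Prim2 and from -0.059 to 0.084 for Pold2. A group left with 1 clone was taken to vary like the others. With 2 clones a group, the spread between clones and not depth limits these values.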
